A study of Mus musculus with 19 samples.

Results

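The genes described here are 10 chemokine ligand genes, Ccl6, Ccl9, Ccl2, Ccl3, Ccl4, Ccl5, Cxcl10, Cxcl16, Cxcl2 and Pf4, chosen by name from the CC and CXC families, and all 10 have a row among the 50854 genes of the count table. Their levels were read in 19 bulk RNA-seq libraries of cells sorted from mouse bone marrow, of which the CCR1/2+ve and CCR2+ve cells were sorted as monocytes. The mice were females of 8 to 12 weeks, and per the study's methods the sorted cells came from REP mice, in which CCR1, CCR2 and other chemokine receptors are each marked by a separate fluorescent protein, so the CCR1/2+ve gate (both reporters) and the CCR2+ve gate (CCR2 reporter only) rest on reporters. At rest the sample labels gave 4 libraries each for the CCR1/2+ve and the CCR2+ve gate, and after inflammation 3 for CCR1/2+ve, 4 for CCR2+ve and 4 labelled inflamed CCR1, a population the study's methods do not describe. Inflamed mice carried an osmotic pump for 7 d that delivered IL-3 at 15 ng/h, IL-6 at 16 ng/h, GM-CSF at 15 ng/h and, at a lower rate, IFN-α. Whether the resting mice carried a vehicle pump, and how many mice made up a library, is not given in the sources used here, so p-values measure only the spread between libraries, which may be technical.

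Libraries held between 22268658 and 30502009 reads on genes. In the 4 CCR1/2+ve and CCR2+ve groups the monocyte label was borne out by 10 of 10 monocyte markers, each with a mean over 10 counts per M reads (CPM) in every one of these groups. Their summed level ranged from 31100 to 61200 CPM, of which Lyz2 alone made up 60.9% to 74.7%. The libraries labelled CCR1, for which the study's methods state no gate, differed from these groups. Their monocyte markers summed to between 7800 and 12400 CPM, of which Lyz2 made up 76.7% to 85.3%. Ccr2 had a mean of 5.81 CPM against 633 to 1251 CPM in the other groups, and 9 neutrophil markers summed to between 92400 and 136000 CPM against 392 to 2520 CPM elsewhere. These 4 libraries are therefore called the libraries labelled CCR1, and every comparison among the other 15 was fitted without them.

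Chemokines are small secreted proteins that direct leukocyte migration by binding G protein-coupled receptors on the cells they attract. CC chemokines mainly draw monocytes, T cells and eosinophils, and CXC chemokines mainly draw neutrophils or activated lymphocytes. Monocytes are both targets and sources of chemokines, since CCR2 and its ligand CCL2 drive their exit from bone marrow, and monocytes that sense infection secrete ligands for CCR1 and CXCR3.

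By the GENCODE M21 annotation of GRCm38, 5 of the genes lie in one cluster on chromosome 11. Ccl5 (chr11:83525778-83530518, minus strand), Ccl9 (chr11:83572919-83578636, minus strand), Ccl6 (chr11:83587882-83593087, minus strand), Ccl3 (chr11:83647844-83649355, minus strand) and Ccl4 (chr11:83662584-83664683, plus strand) follow each other, with 9.24 kb between Ccl9 and Ccl6. Ccl2 (chr11:82035571-82037453, plus strand) and Cxcl16 (chr11:70453983-70459984, minus strand) lie elsewhere on the same chromosome. Pf4 (chr5:90772435-90773383, plus strand), Cxcl2 (chr5:90903871-90905938, plus strand) and Cxcl10 (chr5:92346638-92348889, minus strand) are on chromosome 5.

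Promoter windows, from 250 bases before the start to 50 from the start onward, were found in RefSeq (GRCm38.p6) for 6 of the 10 genes. The windows of 4 of them are shown, because Ccl6 and Ccl9 gave nearly all chemokine reads yet moved differently under inflammation, and Cxcl10 and Cxcl2 moved in opposite directions in CCR2+ve monocytes. Each reads 5′ to 3′ in the direction of transcription, and capitals mark letters that matched a motif on either strand.
Ccl6 (chr11:83593038-83593337, minus strand): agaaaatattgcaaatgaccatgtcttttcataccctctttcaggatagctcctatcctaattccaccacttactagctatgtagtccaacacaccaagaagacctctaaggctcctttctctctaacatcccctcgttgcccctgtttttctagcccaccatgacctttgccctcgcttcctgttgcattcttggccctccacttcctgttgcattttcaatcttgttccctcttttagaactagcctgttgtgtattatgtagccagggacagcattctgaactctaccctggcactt
Ccl9 (chr11:83578587-83578886, minus strand): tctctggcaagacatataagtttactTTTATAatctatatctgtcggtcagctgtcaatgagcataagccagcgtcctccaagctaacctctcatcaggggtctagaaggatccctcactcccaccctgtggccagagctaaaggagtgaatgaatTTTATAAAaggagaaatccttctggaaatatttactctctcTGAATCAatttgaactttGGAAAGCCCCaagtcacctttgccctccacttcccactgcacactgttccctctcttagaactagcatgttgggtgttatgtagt
Cxcl10 (chr5:92348840-92349139, minus strand): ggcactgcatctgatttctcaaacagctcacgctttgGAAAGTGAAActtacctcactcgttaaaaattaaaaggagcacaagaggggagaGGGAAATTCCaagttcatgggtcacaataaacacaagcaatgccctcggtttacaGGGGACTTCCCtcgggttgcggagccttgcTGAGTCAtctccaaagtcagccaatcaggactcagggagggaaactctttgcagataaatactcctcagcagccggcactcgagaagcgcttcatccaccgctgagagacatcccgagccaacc
Cxcl2 (chr5:90903649-90903948, plus strand): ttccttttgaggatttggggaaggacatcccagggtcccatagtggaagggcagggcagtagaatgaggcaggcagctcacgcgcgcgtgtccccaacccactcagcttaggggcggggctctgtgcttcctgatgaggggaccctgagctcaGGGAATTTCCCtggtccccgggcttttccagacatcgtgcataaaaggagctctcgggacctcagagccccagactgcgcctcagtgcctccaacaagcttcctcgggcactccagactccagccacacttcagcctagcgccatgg

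The motifs searched were the interferon-stimulated response element core (GAAA, any 2 bases, GAAA), the interferon-gamma activated site TTCNNNGAA, the NF-kB consensus, the AP-1 site TGANTCA and the TATA box TATAAA. Positions count from the first transcribed base, the base before it being -1. The Cxcl10 window held the interferon-stimulated response element core from -213 to -204, a letter match found in 3.44% of 32851 promoter windows of the same length. It also held NF-kB matches starting at -159, -104 and -103, the latter pair overlapping, and an AP-1 match starting at -74. The Cxcl2 window held a pair of overlapping NF-kB matches starting at -97 and -96. The Ccl9 window held an NF-kB match starting at -35, an AP-1 match starting at -53 and TATA box matches starting at -224, -94 and -92, the latter pair overlapping on opposite strands. None of the motifs was in the windows of Ccl6, Ccl3 or Pf4, which says only that these letters are absent there. Of all windows, 8.46% held the NF-kB consensus, 7.81% the AP-1 site, 13.6% the TATA box and 8.3% the interferon-gamma activated site.

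Ccl6 and Ccl9, which encode ligands of CCR1 made by myeloid cells, dominated the chemokine output of the monocytes at the RNA level. Per kilobase of exon (RPKM, which allows levels of different genes to be set side by side), resting CCR2+ve monocytes had a mean of 1077 RPKM of Ccl6 and 244.7 RPKM of Ccl9, followed by Ccl3 at 15.3, Ccl5 at 10.1, Ccl2 at 9.93 and Cxcl10 at 9.55 RPKM, the ranges of neighbours among these last 4 overlapping. Ccl4 followed at 3.02, Cxcl16 at 1.13, Pf4 at 0.204 and Cxcl2 at 0.00485 RPKM. In resting CCR1/2+ve monocytes the order was Ccl6 (673 RPKM), Ccl9 (151), Ccl3 (15.96), Ccl2 (9.40), Cxcl10 (4.68), Ccl5 (2.94), Ccl4 (1.54), Pf4 (0.334), Cxcl16 (0.293) and Cxcl2 (0.0244). In this group the ranges of Cxcl10 and Ccl5, of Ccl5 and Ccl4, and of Pf4 and Cxcl16 overlapped, and the other neighbours were separate. In both inflamed groups Ccl2 stood next after Ccl9, at 15.6 RPKM in CCR1/2+ve and 13.51 RPKM in CCR2+ve monocytes, above Ccl3 at 7.73 and 9.45 RPKM, with ranges that did not overlap. Below Ccl3, the neighbours Cxcl10, Ccl4, Ccl5, Pf4, Cxcl16 and Cxcl2 overlapped in both inflamed groups.

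**Figure D1:**
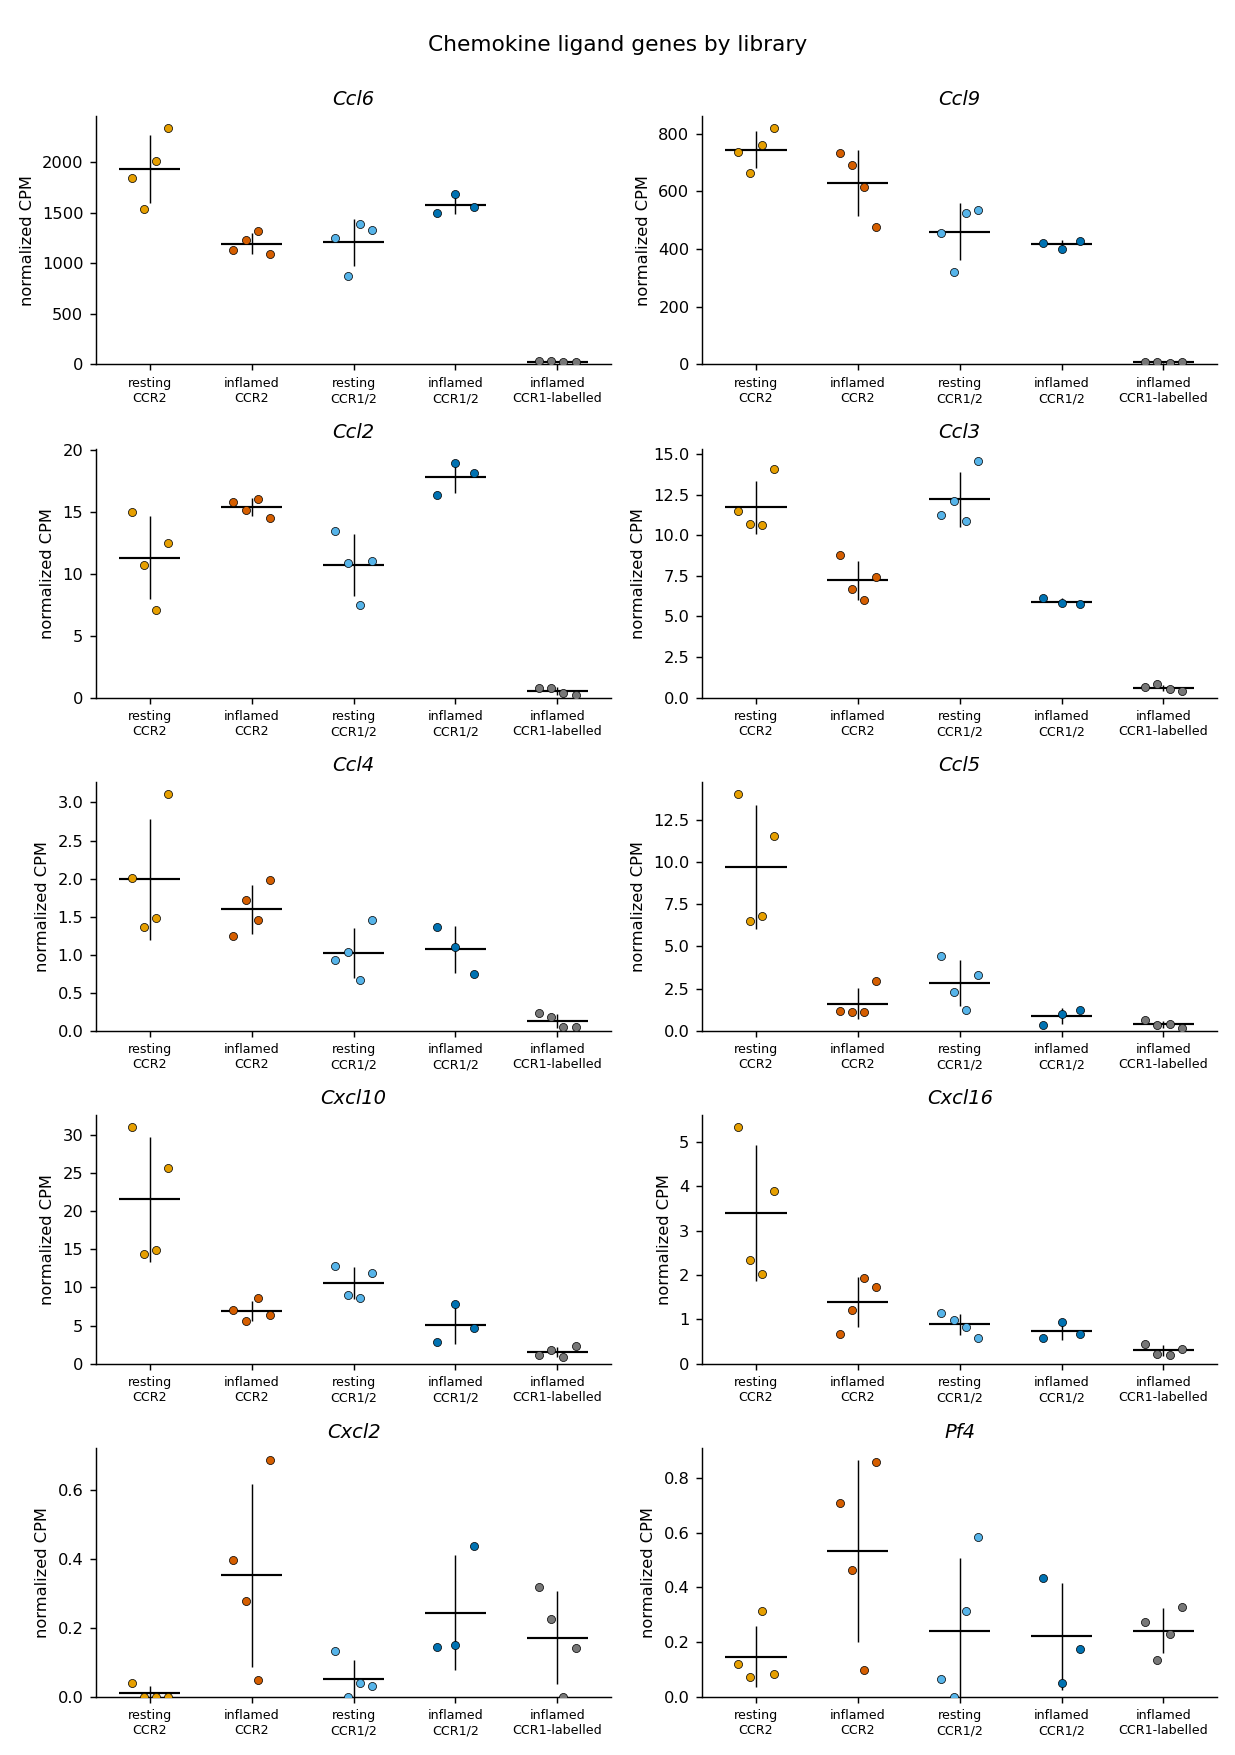
Level of each of the 10 chemokine ligand genes in every library, as normalized counts (CPM, y axis, linear and starting at 0) by group (x axis); points are libraries, horizontal bars group means and vertical bars ± 1 SD (n = 3 for inflamed CCR1/2, n = 4 for the others). Ccl6 and Ccl9 are the highest of the 10 in each of the first 4 groups, Ccl5, Cxcl10 and Cxcl16 are highest in the resting CCR2 libraries, and Cxcl2 and Pf4 stay under 1 CPM in every library.

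Summed over the 10 genes, resting CCR2+ve monocytes had 2737 ± 407 CPM (SD, n = 4) and resting CCR1/2+ve monocytes 1707 ± 329.9 CPM (n = 4). Inflamed CCR1/2+ve monocytes had 2031 ± 85.2 CPM (n = 3), inflamed CCR2+ve monocytes 1859 ± 171 CPM (n = 4) and the libraries labelled CCR1 40.6 ± 9.84 CPM (n = 4). Ccl6 and Ccl9 made up between 97.0% and 98.6% of this sum in each library of the first 4 groups. In bulk libraries such as these, fewer cells of a type and less RNA per cell cannot be told apart.

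Resting CCR1/2+ve monocytes had lower levels of several chemokine ligands than resting CCR2+ve monocytes, and the largest differences were in Ccl5 and Cxcl16. In every comparison a gene was called when the quasi-likelihood test of edgeR gave a p below 0.05 after Benjamini-Hochberg adjustment across the 18652 genes tested, and the log2 fold change was 1 or more in either direction. A difference that met the first condition alone is said to pass on the adjusted p. By this rule 2 of the 10 genes were lower and 0 were higher, where 1.9% of all genes tested were lower and 2.34% higher. On the adjusted p alone 5 were lower (Ccl6, Ccl9, Ccl5, Cxcl10 and Cxcl16) and 0 higher, against 8.44% of all genes in each direction. The median log2 fold change of the 10 genes was -0.61, and that of all genes tested 0.03.

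Under inflammation CCR2+ve monocytes lost Ccl5, Cxcl10 and Cxcl16 and gained Cxcl2, so that 3 genes were called lower (19.2% of all genes tested) and 1 higher (9.37%). On the adjusted p alone 6 were lower, Ccl6, Ccl9 and Ccl3 being the others, against 25.9% of all genes, and 1 was higher, against 21.9%. The median of the 10 was -0.57 against -0.10 for all genes. In CCR1/2+ve monocytes inflammation lowered Ccl3, Ccl5 and Cxcl10, which made 3 genes lower (19.4% of all genes) and 0 higher (9.16%), while on the adjusted p alone these 3 were lower (25.4% of all genes) and 1, Ccl2, was higher (20.6%). The median of the 10 was -0.24 and that of all genes -0.25. Both inflammation comparisons share their resting libraries with the resting comparison, so the fold changes are not independent of each other.

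Markers used for basophils and mast cells and for neutrophils rose in the same inflamed libraries. The 5 basophil and mast cell markers summed to between 3.03 and 10.7 CPM in resting and between 104 and 237 CPM in inflamed CCR2+ve libraries, with 5 of 5 called higher. In CCR1/2+ve libraries they summed to between 0.0925 and 19.5 CPM at rest and between 125 and 175 CPM after inflammation, with 4 of 5 called higher. Of the 9 neutrophil markers 4 were called higher in CCR2+ve monocytes (453 to 735 CPM at rest, 1140 to 1390 CPM after inflammation) and 6 in CCR1/2+ve monocytes (392 to 613 and 1950 to 2520 CPM). The 3 eosinophil markers summed to at most 3.4 CPM in these groups. The part of such cells or transcripts in the changes of the chemokine genes was not tested.

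Between inflamed CCR1/2+ve and inflamed CCR2+ve monocytes edgeR called 0 of the 10 genes, where 0.102% of all genes tested were called higher and 0.0429% lower. On the adjusted p alone there were also 0 (0.123% of all genes were higher and 0.0643% lower), and at an unadjusted p below 0.05 there were 2, Ccl6 and Ccl9. DESeq2 also called 0 at both cutoffs and gave 1, Ccl9, on the adjusted p alone. The change with inflammation was also compared between the populations, as an interaction of population and inflammation over 15 libraries. There 0 of the 10 were called (0.0911% of all genes were higher and 0.123% lower) and 1, Ccl6, passed on the adjusted p alone (0.241% of all genes were higher and 0.155% lower by that rule) and on the unadjusted p. DESeq2 placed Ccl6 past both cutoffs.

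**Figure D2:**
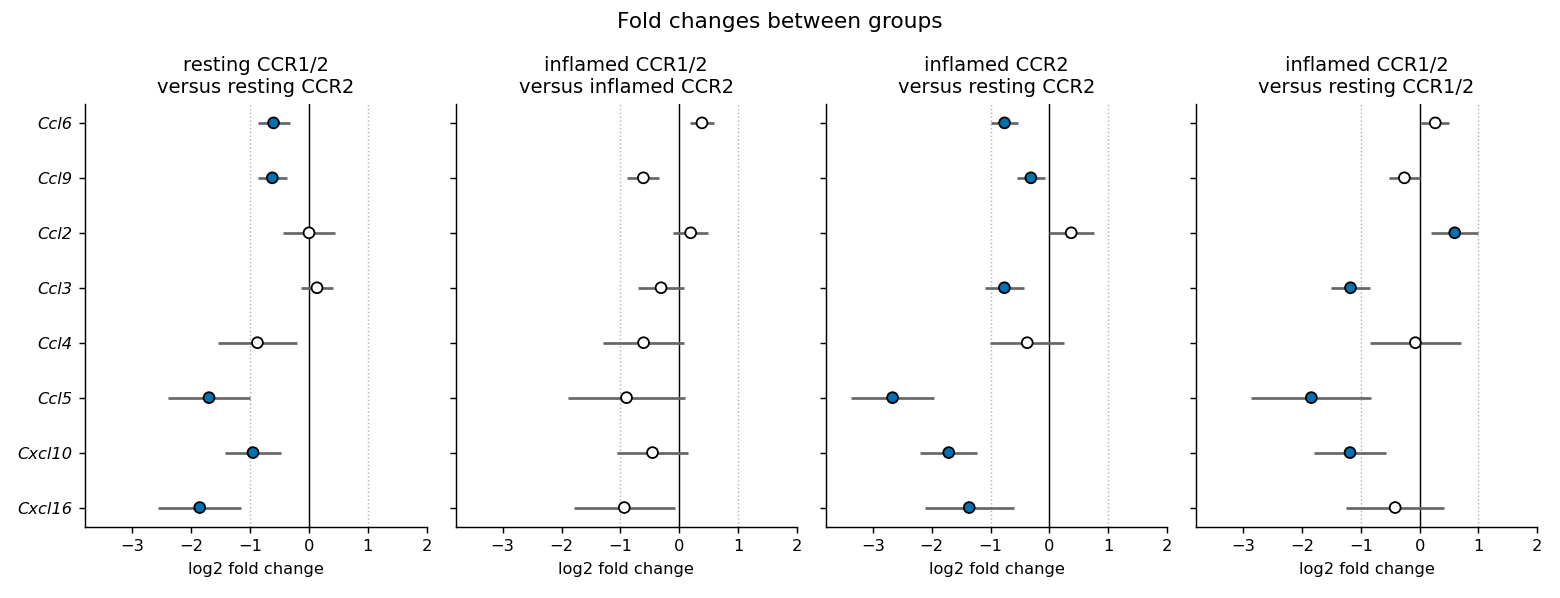
Log2 fold change (x axis) of the 8 genes with more than a few reads per library (y axis) in 4 comparisons, one per panel; bars are 95% intervals from the standard error, filled points have an adjusted p below 0.05, and dotted lines mark an absolute log2 fold change of 1. Ccl5 lies lowest in both inflammation panels, at -2.67 in CCR2 and -1.84 in CCR1/2 monocytes, and no point is filled between the inflamed populations.

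Ccl6 encodes CCL6 (C10), a CCR1 ligand. In resting CCR2+ve monocytes its level was 1846, 1534, 2011 and 2339 CPM in replicates 1 to 4. In resting CCR1/2+ve monocytes it was 1247, 871, 1391 and 1326 CPM. The groups did not overlap, replicate 2 being the lowest in both, and Ccl6 was lower in CCR1/2+ve monocytes by a log2 fold change of -0.60 (SE 0.14, adjusted p = 0.0102). After inflammation the CCR2+ve libraries held 1133, 1227, 1323 and 1094 CPM. All lay below the resting CCR2+ve libraries, a fold change of -0.76 (SE 0.12, adjusted p = 6.48e-05). Inflamed CCR1/2+ve libraries, replicates 2 to 4, held 1502, 1684 and 1557 CPM. All lay above the resting CCR1/2+ve libraries and above the inflamed CCR2+ve libraries, but neither difference passed, at 0.27 (SE 0.12, adjusted p = 0.101) and 0.39 (SE 0.10, adjusted p = 0.208).

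The change of Ccl6 with inflammation differed between the populations by 0.98 on the log2 scale (SE 0.18, adjusted p = 0.0273). It was just under the fold cutoff of 1. The adjusted p was above 0.05 without resting CCR1/2+ve replicate 2 (0.87, adjusted p = 0.0589), resting CCR2+ve replicate 3 (0.97, adjusted p = 0.0733) or 4 (0.98, adjusted p = 0.0586), inflamed CCR1/2+ve replicate 3 (0.93, adjusted p = 0.133), or inflamed CCR2+ve replicate 1 (0.96, adjusted p = 0.0711) or 2 (0.98, adjusted p = 0.0504). The monocyte markers leaned the same way, with 10 of 10 above 0 in the interaction (median 0.43) and 1 past the adjusted p. So did 9 of 9 neutrophil markers (median 1.135) and 17 of 18 interferon target genes (median 0.847), with 0 of either list past the adjusted p. Tissue macrophage markers went the other way, with 11 of 14 below 0 (median -2.2) and 3 called lower. Of all 18652 genes tested, 7919 were above 0 (median -0.099). The part of these lists in the change of Ccl6 was not tested.

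Ccl9 encodes CCL9, also called MIP-1γ, another CCR1 ligand. Resting CCR2+ve libraries held 736, 664, 760 and 820 CPM. Resting CCR1/2+ve libraries held 457, 321, 525 and 536 CPM, again with replicate 2 the lowest in both groups. The groups did not overlap, with a fold change of -0.62 (SE 0.13, adjusted p = 0.00489), close to that of Ccl6. The 10 monocyte markers moved with both genes at rest. Of these, 7 were lower in CCR1/2+ve monocytes on the adjusted p (2 of them called, median -0.60), and their sum was 31100 to 44000 CPM against 46600 to 53300 CPM, replicate 2 being the lowest in both groups. Lyz2 alone made up 70.2% to 74.7% of that sum. The part of the 10 markers in the differences of Ccl6 and Ccl9 was not tested. Inflamed CCR2+ve libraries held 734, 692, 617 and 475 CPM, overlapping the resting ones. The fold change was -0.31 (SE 0.12, adjusted p = 0.0425), and the adjusted p ranged from 0.0183 to 0.299 over the alternatives, rising above 0.05 without any one of the resting replicates (0.0911 to 0.299) or without inflamed replicate 3 (0.0789) or 4 (0.0825), and also with RLE size factors (0.0836), in DESeq2 (0.0847) and in 1 fit of all 19 libraries (0.266). It stayed below 0.05 in 6 of 15 alternatives. Inflamed CCR1/2+ve libraries held 422, 402 and 429 CPM. These overlapped the resting CCR1/2+ve libraries (-0.26, SE 0.13, adjusted p = 0.134, and 0.0177 without resting replicate 2) and all lay below the inflamed CCR2+ve libraries (-0.61, SE 0.14, adjusted p = 0.136). The latter difference had an adjusted p of 0.0198 without inflamed CCR2+ve replicate 4, the lowest of its group, of 0.0190 with no filter on low counts and of 0.0265 in DESeq2 (range over the alternatives 0.0190 to 0.429).

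The ratio of Ccl6 to Ccl9 reads, a measure chosen after the values were seen and therefore given with no test, separated the inflamed populations. It was 2.64 ± 0.115 reads of Ccl6 per Ccl9 read in resting CCR1/2+ve (SD, n = 4) and 2.58 ± 0.227 in resting CCR2+ve libraries (n = 4), whose ranges overlapped. It was 3.79 ± 0.346 in inflamed CCR1/2+ve (n = 3) and 1.94 ± 0.345 in inflamed CCR2+ve libraries (n = 4), with the former between 3.56 and 4.19 and the latter between 1.54 and 2.30. The libraries labelled CCR1, which held few reads of either gene, had 3.98 ± 0.701 (n = 4). Of the 35-base stretches of their transcripts, 0.796% of Ccl6 and 3.35% of Ccl9 also occur in other genes, where reads that align to more than 1 place were not counted.

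**Figure D3:**
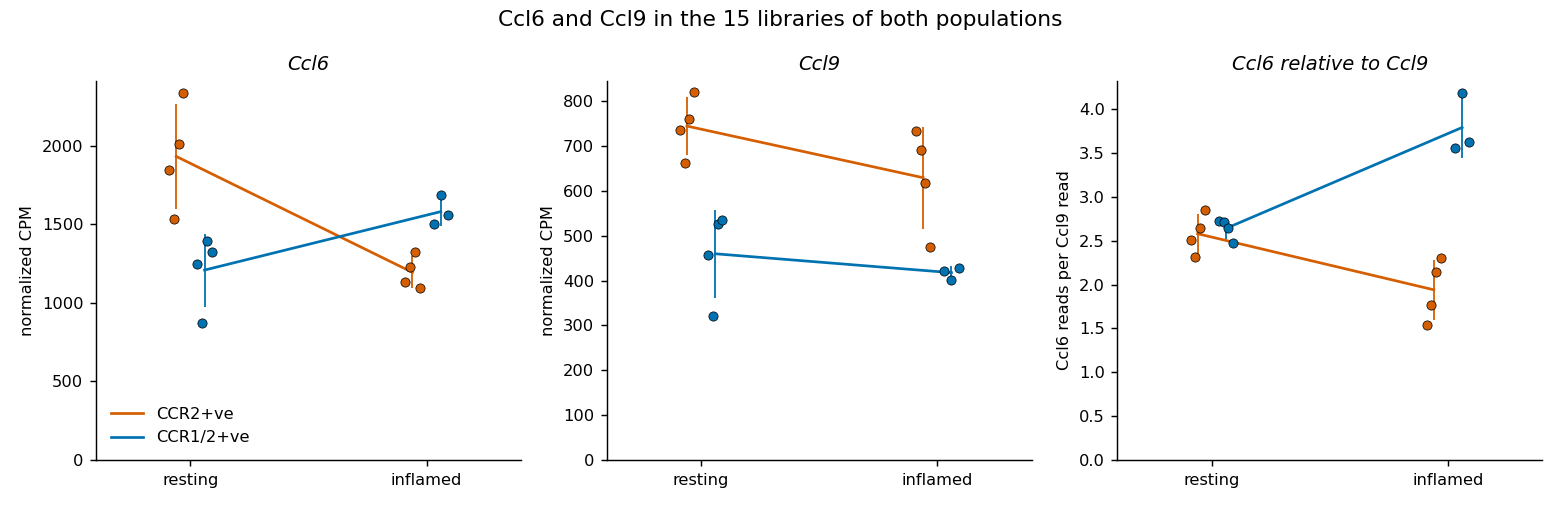
Ccl6 (left) and Ccl9 (middle) in CPM, and Ccl6 reads per Ccl9 read (right), in resting and inflamed libraries (x axis) of CCR2+ve (orange) and CCR1/2+ve (blue) monocytes; points are libraries, lines join group means and vertical bars are ± 1 SD. The Ccl6 lines cross, from 1933 to 1194 CPM in CCR2+ve and from 1209 to 1581 CPM in CCR1/2+ve monocytes, the Ccl9 lines do not, and the ratio is 3.79 against 1.94 after inflammation.

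Within groups Ccl6 and Ccl9 also varied together. The deviations of log2 CPM from group means had r = 0.798 over 19 libraries, a description over libraries that share depth and composition. Taken over the 19 libraries without removing group means, the genes with the pattern most like Ccl6 were Rbm47 (r = 0.994), Gpr65 (r = 0.994) and S100a6 (r = 0.993), of 7685 genes with a mean of at least 10 CPM. Those most like Ccl9 were Emilin2 (r = 0.995), Zeb2 (r = 0.993) and S100a6 (r = 0.993). These coefficients are set mainly by the low levels in the libraries labelled CCR1, where S100a6, for example, had 20.9 CPM against 604 to 718 CPM in the other groups. In the deviations from group means, the leading genes for Ccl6 were Ifitm6 (r = 0.851), Cd14 (r = 0.847), the co-receptor for bacterial lipopolysaccharide, and Ly86 (r = 0.845). For Ccl9 they were Crip1 (r = 0.870), Ly96 (r = 0.847), which encodes the lipopolysaccharide-binding partner MD-2, and Ugt1a7c (r = 0.847).

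Ccl2 encodes the main CCR2 ligand, CCL2 (MCP-1). Resting CCR2+ve libraries held 15.01, 10.7, 7.03 and 12.4 CPM and resting CCR1/2+ve libraries 13.4, 10.9, 7.44 and 11.04 CPM, the same replicates being high and low in both. The difference was 0.00 on the log2 scale (SE 0.23, 95% interval -0.45 to 0.45). Inflamed CCR1/2+ve libraries held 16.4, 18.9 and 18.1 CPM, all above the resting ones. This was a rise of 0.60 (SE 0.20, adjusted p = 0.0303), with an adjusted p of 0.0534 without resting replicate 3, 0.0599 without resting replicate 4, 0.101 without inflamed replicate 3 and 0.0780 without inflamed replicate 4. Inflamed CCR2+ve libraries held 15.8, 15.1, 16.1 and 14.5 CPM, overlapping the resting libraries only through resting replicate 1. The fold change there was 0.37 (SE 0.20, adjusted p = 0.139), and 0.61 (adjusted p = 0.0183) without that library, in a range of 0.0183 to 0.220 over the alternatives. By its pattern over the 19 libraries Ccl2 was most like Aim2 (r = 0.987), a sensor of cytosolic DNA, Ms4a4c (r = 0.985) and Ifi213 (r = 0.984). In deviations from group means it was most like Zc2hc1a (r = 0.819), Ifi213 (r = 0.798) and Aim2 (r = 0.766).

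Ccl3, Ccl4 and Ccl5 encode inflammatory CC chemokines, of which CCL3 and CCL5 bind CCR1. Ccl3 stood at 11.5, 10.7, 10.7 and 14.1 CPM in resting CCR2+ve libraries and at 11.3, 12.1, 10.9 and 14.6 CPM in resting CCR1/2+ve libraries. The resting populations overlapped, with a difference of 0.14 (SE 0.14, 95% interval -0.13 to 0.40). After inflammation Ccl3 stood at 8.81, 6.70, 5.998 and 7.44 CPM in CCR2+ve libraries and at 6.15, 5.84 and 5.75 CPM in CCR1/2+ve libraries. Every inflamed library lay below every resting one. Ccl3 fell by 0.76 on the log2 scale in CCR2+ve monocytes (SE 0.17, adjusted p = 0.00173) and by 1.18 in CCR1/2+ve monocytes (SE 0.17, adjusted p = 0.000111). The difference between those falls did not pass (-0.45, SE 0.23, adjusted p = 0.418).

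Ccl4, the neighbour of Ccl3, gave only 17 to 75 reads per library in the CCR1/2+ve and CCR2+ve groups. Resting CCR2+ve libraries held 2.01, 1.36, 1.48 and 3.11 CPM and resting CCR1/2+ve libraries 0.922, 1.04, 0.665 and 1.45 CPM. The groups overlapped at their edges, at a fold change of -0.88 (SE 0.35, adjusted p = 0.109), which became -0.86 with an adjusted p of 0.0373 when replicates of the same number were paired (range over the alternatives 0.0373 to 0.327). With inflammation CCR2+ve libraries held 1.24, 1.72, 1.45 and 1.98 CPM and inflamed CCR1/2+ve libraries 1.36, 1.10 and 0.747 CPM. Neither change with inflammation passed (-0.38, adjusted p = 0.367 in CCR2+ve and -0.07, adjusted p = 0.908 in CCR1/2+ve monocytes).

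Ccl5 encodes RANTES, a chemokine that T and NK cells also make. Its level in resting CCR2+ve libraries was 14.1, 6.53, 6.83 and 11.5 CPM, and in resting CCR1/2+ve libraries 4.42, 2.29, 1.25 and 3.33 CPM. Replicates 1 and 4 were the highest in both groups, the groups did not overlap, and Ccl5 was lower in CCR1/2+ve monocytes by a log2 fold change of -1.70 (SE 0.35, adjusted p = 0.00554). Inflamed CCR2+ve libraries held 1.15, 1.12, 1.11 and 2.97 CPM, all below the resting CCR2+ve libraries. Inflamed CCR1/2+ve libraries held 0.339, 0.999 and 1.23 CPM, all below the lowest resting CCR1/2+ve library, replicate 4 only just. Ccl5 fell by 2.67 in CCR2+ve monocytes (SE 0.36, adjusted p = 1.90e-05) and by 1.84 in CCR1/2+ve monocytes (SE 0.52, adjusted p = 0.0130), and the difference between these falls did not pass (0.78, SE 0.67, adjusted p = 0.673).

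Cxcl10 encodes the interferon-induced CXCR3 ligand IP-10. Resting CCR2+ve libraries held 31.03, 14.4, 14.9 and 25.7 CPM and resting CCR1/2+ve libraries 12.8, 8.94, 8.65 and 11.8 CPM. The groups did not overlap, and replicates 1 and 4 were again the highest in both. The fold change was -0.95 (SE 0.24, adjusted p = 0.0163). The adjusted p was 0.0607 without CCR1/2+ve replicate 2, 0.0577 without CCR2+ve replicate 1 and 0.0516 without CCR2+ve replicate 4 (fold changes of -0.89, -0.70 and -0.88). When replicates of the same number were paired, the fold change was -0.90 with an adjusted p of 4.29e-05. The gene was called without CCR1/2+ve replicate 1 (-1.06) or without CCR2+ve replicate 2 or 3 (-1.10 each), and in 1 fit of all 19 libraries (-1.03). Inflamed CCR2+ve libraries held 7.09, 5.54, 8.56 and 6.37 CPM and inflamed CCR1/2+ve libraries 2.81, 7.79 and 4.61 CPM. Every inflamed library lay below every resting library of its population. The cytokines infused into the inflamed mice included IFN-α. Cxcl10 fell by 1.71 in CCR2+ve (SE 0.25, adjusted p = 3.45e-05) and by 1.18 in CCR1/2+ve monocytes (SE 0.31, adjusted p = 0.00921). Without inflamed CCR1/2+ve replicate 2, the lowest of its group, the latter was -0.89 (adjusted p = 0.0162), under the fold cutoff.

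Cxcl16 encodes the membrane-bound CXCR6 ligand and scavenger receptor CXCL16. Resting CCR2+ve libraries held 5.34, 2.33, 2.03 and 3.9 CPM and resting CCR1/2+ve libraries 1.15, 0.976, 0.822 and 0.586 CPM. The groups did not overlap, at a fold change of -1.86 (SE 0.36, adjusted p = 0.00384), with CCR2+ve replicates 1 and 4 highest. After inflammation the CCR2+ve libraries held 0.664, 1.21, 1.94 and 1.72 CPM, all below the resting CCR2+ve ones. Cxcl16 fell by 1.36 there (SE 0.38, adjusted p = 0.00855), and the change was -0.99 (adjusted p = 0.0493), under the fold cutoff, without resting CCR2+ve replicate 1. Inflamed CCR1/2+ve libraries held 0.582, 0.949 and 0.659 CPM, overlapping the resting CCR1/2+ve libraries (-0.42, SE 0.43, adjusted p = 0.462), and the interaction did not pass (0.91, SE 0.58, adjusted p = 0.541). Of the exonic bases of Cxcl16, 18.3% overlap Zmynd15 on the opposite strand, which had at most 0.629 CPM in any library, and 5.91% of those of Cxcl10 overlap Art3, with at most 0.772 CPM. The sources used here do not give the strand setting of the counts.

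Markers of other cells moved with Ccl5, Cxcl10 and Cxcl16. The 7 dendritic cell markers summed to 592, 217, 218 and 378 CPM in resting CCR2+ve replicates 1 to 4, high in the same replicates, and to between 34.2 and 116 CPM in resting CCR1/2+ve libraries. H2-Ab1, which B cells and macrophages also express, made up between 50.4% and 72.5% of that sum in these 8 libraries, and 0 of the 7 markers was without reads in either group. The list had 4 of 7 genes lower in resting CCR1/2+ve monocytes (median -1.395), among them Flt3 (-2.52) and Cd209a (-2.67). Among 10 T and NK cell markers 4 were lower, including the NK receptor genes Klrd1 (1.17 CPM in CCR2+ve and 0.262 CPM in CCR1/2+ve monocytes) and Ncr1 (0.642 and 0.0391 CPM), and Nkg7 was higher (2.62). Their summed level, mostly Nkg7, was 11.2 to 16.9 CPM in resting CCR2+ve and 31.2 to 81.5 CPM in resting CCR1/2+ve libraries. Of 14 tissue macrophage markers 6 were called higher in resting CCR1/2+ve monocytes, among them Vcam1 (4.06) and Slc40a1 (3.37), and 2 lower (median 1.21). The part of these cells in the 3 genes' levels was not tested. Under inflammation 5 of the 7 dendritic cell markers were called lower in CCR2+ve monocytes (median -3.36) and 4 of 7 in CCR1/2+ve monocytes (median -1.54), alongside the falls of Ccl5 and Cxcl10 in both populations and of Cxcl16 in CCR2+ve monocytes. In CCR2+ve monocytes Cd209a went from 88.5 to 2.79 CPM, Flt3 from 32.2 to 2.51 CPM and Siglech, a plasmacytoid dendritic cell marker, from 2.48 to 0.177 CPM. H2-Ab1 was not called, at 226 and 260.1 CPM, so the summed level of 108, 257, 557 and 144 CPM in inflamed CCR2+ve libraries was nearly all H2-Ab1 (93.8% to 98.6%). Of the T and NK cell markers 4 were lower and 2 higher in CCR2+ve monocytes under inflammation, the lower ones including Nkg7 (-1.82) and Klrd1 (-2.71), and 1 was lower and 2 higher in CCR1/2+ve monocytes. Of the 14 tissue macrophage markers 5 were called higher and 0 lower in CCR2+ve monocytes (median 0.70). In CCR1/2+ve monocytes 3 of them were higher and 6 lower (median -1.23). The part of these lists in these falls was not tested either. Of all genes tested, 1.9% were called lower and 2.34% higher in resting CCR1/2+ve than in resting CCR2+ve monocytes. Under inflammation 19.2% were lower and 9.37% higher in CCR2+ve monocytes, and 19.4% and 9.16% in CCR1/2+ve monocytes.

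**Figure D4:**
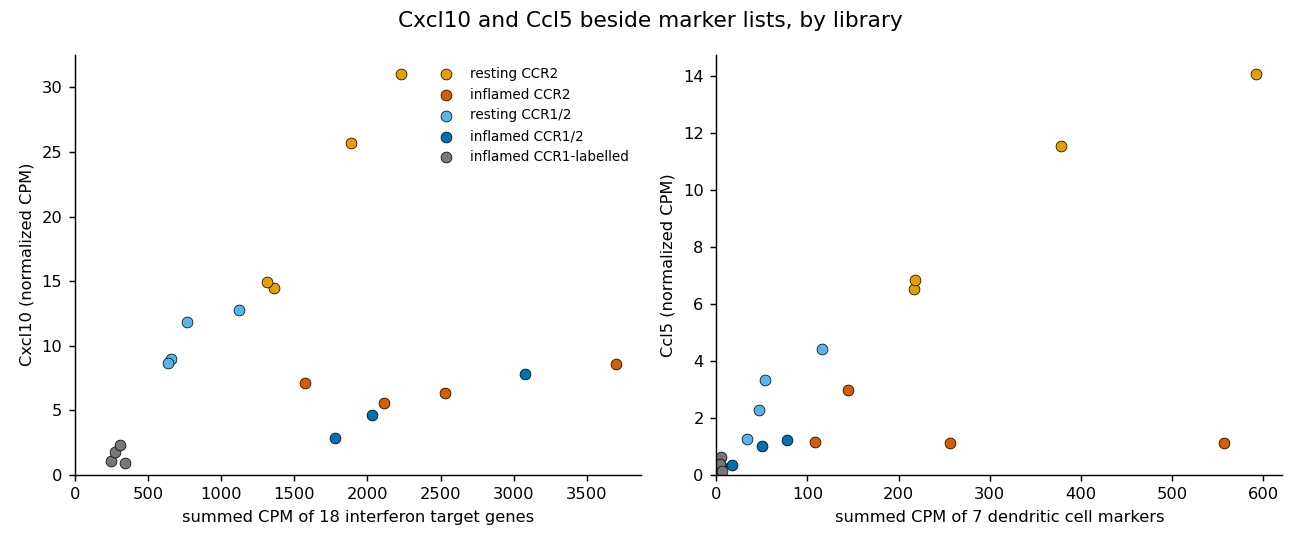
Cxcl10 against the summed CPM of 18 interferon target genes (left) and Ccl5 against the summed CPM of 7 dendritic cell markers (right), in CPM on linear axes; each point is 1 of 19 libraries, coloured by group. The dendritic cell sum is 50.4% to 72.5% H2-Ab1 in resting and 93.8% to 98.6% in inflamed CCR2 libraries, so equal sums are not equal levels of the other markers. Cxcl10 is 14.4 to 31.03 CPM in resting and 5.54 to 8.56 CPM in inflamed CCR2 libraries.

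Among other interferon targets a few fell with Cxcl10 under inflammation and more rose. Of 18 such genes, chosen as targets of IFN-γ or type I IFN, 8 were called lower in resting CCR1/2+ve than in resting CCR2+ve monocytes and 0 higher (median -1.07), including Ifit2 (-1.29), Ifit3 (-1.39) and Gbp2 (-1.13). Their summed level was 2230, 1360, 1310 and 1890 CPM in resting CCR2+ve libraries, again highest in replicates 1 and 4, and 635 to 1120 CPM in resting CCR1/2+ve libraries. Under inflammation 12 of the 18 were called higher and 1, Socs1 (-3.49), lower in CCR1/2+ve monocytes (median 1.44). In CCR2+ve monocytes 3 were higher, including Oasl1 (1.45) and Gbp5 (1.81), and 2 lower, Socs1 (-3.98) and Rsad2 (-1.03), with a median of 0.50. Of all genes tested, 1.9% were lower and 2.34% higher between the resting populations. Under inflammation 9.16% were higher and 19.4% lower in CCR1/2+ve monocytes, and 9.37% and 19.2% in CCR2+ve monocytes. Cxcl9 and Cxcl11, the other genes for CXCR3 ligands, were low. Cxcl9 had 7.43 ± 5.45 CPM in resting CCR2+ve libraries (SD, n = 4) and fell by 1.75 under inflammation there (adjusted p = 0.00921) and by 1.09 in CCR1/2+ve monocytes (adjusted p = 0.0415). Cxcl11 had 0.329 CPM in resting CCR2+ve libraries and was lower in resting CCR1/2+ve (-3.10, adjusted p = 0.0450) and inflamed CCR2+ve monocytes (-2.77, adjusted p = 0.0243).

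Of 20 early response genes, which stimulated or handled cells switch on within minutes, 3 were called lower in resting CCR1/2+ve than in resting CCR2+ve monocytes, Atf3, Klf2 and Nr4a1. Under inflammation 11 were lower and 2 higher in CCR2+ve monocytes (median -1.11) and 10 were lower and 2 higher in CCR1/2+ve monocytes (median -1.50). Junb fell by 3.05 and Ier2 by 5.0 in CCR2+ve monocytes, in the same libraries in which Ccl3, Ccl5 and Cxcl10 were lower. Their part in those changes was not tested. Of all genes tested, 1.9% were called lower in resting CCR1/2+ve monocytes. Under inflammation 19.2% were lower and 9.37% higher in CCR2+ve monocytes, and 19.4% and 9.16% in CCR1/2+ve monocytes.

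Cxcl2 encodes a CXCR2 ligand that attracts neutrophils. It had 1 read in all 4 resting CCR2+ve libraries together and 6 reads in the 4 resting CCR1/2+ve libraries, and no resting library exceeded 0.132 CPM. Inflamed CCR2+ve libraries held 0.399, 0.279, 0.0484 and 0.688 CPM (32 reads in all) and inflamed CCR1/2+ve libraries 0.145, 0.150 and 0.439 CPM (16 reads). In both populations the inflamed libraries lay above the resting ones in CPM, but at their edges not in reads. Inflamed CCR2+ve replicate 3 and resting CCR2+ve replicate 1 held 1 read each. Inflamed CCR1/2+ve replicates 2 and 3 held 3 reads each, and resting CCR1/2+ve replicate 1 held 4. The normalized reads of inflamed CCR2+ve libraries were 37.3 times those of resting ones, with an exact 95% counting interval of 6.23 to 1520, and the gene was called (adjusted p = 0.00344). In CCR1/2+ve monocytes the fold change of 2.08 did not pass (SE 1.03, adjusted p = 0.124).

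Pf4 encodes platelet factor 4, a platelet granule chemokine. It had 29 reads in all resting CCR1/2+ve, 15 in resting CCR2+ve, 14 in inflamed CCR1/2+ve and 48 in inflamed CCR2+ve libraries, between 0 and 0.860 CPM, and did not pass in any of the 4 comparisons. In CCR2+ve monocytes inflammation gave 0.709, 0.465, 0.0967 and 0.860 CPM against 0.120, 0.0718, 0.312 and 0.0830 CPM at rest, a fold change of 1.77 (SE 0.70, adjusted p = 0.0501). The adjusted p was 0.0183 without resting replicate 3 and 0.0136 without inflamed replicate 3, 0.0452 with RLE size factors, 0.0474 with no filter on low counts and 0.0496 with the filter set without the libraries labelled CCR1, and ranged from 0.0136 to 0.153 over the alternatives. The 9 megakaryocyte and platelet markers summed to between 0.61 and 1.24 CPM in resting and between 0.58 and 4.0 CPM in inflamed CCR2+ve libraries, and Itga2b, the platelet integrin αIIb, rose by 2.19 there. Their part in the level of Pf4 was not tested.

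The remaining CC, CXC, C and CX3C ligand genes were mostly at low levels. Of 27 with a row, 14 passed the filter on low counts. In the 4 CCR1/2+ve and CCR2+ve groups Ccl28 (11.6 to 13.7 CPM) and Ccl25 (7.37 to 9.38 CPM) had the highest means, and neither was called in these groups. Under inflammation 2 of the 14 were higher in CCR2+ve monocytes, where 9.37% of all genes tested were higher. These were the CCR2 ligand gene Ccl7 (0.121 to 2.72 CPM, 4.40 on the log2 scale, adjusted p = 0.000152) and the CXCR2 ligand gene Cxcl1. The latter had no read in any resting library of either population and 0.310 CPM after inflammation. In CCR1/2+ve monocytes 1 was higher (9.16% of all genes), Cxcl1, at 0.185 CPM. The lower ones were Cxcl12, Cxcl9 and Cxcl11 in CCR2+ve (19.2% of all genes) and Cxcl9 in CCR1/2+ve monocytes (19.4% of all genes).

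Among 11 genes for receptors and scavengers of these ligands, 9 were tested. Ccr1 rose with inflammation from 75.1 to 209 CPM in CCR2+ve monocytes (1.4, adjusted p = 1.70e-06) and from 112 to 310 CPM in CCR1/2+ve monocytes (1.34, adjusted p = 0.000315). Of the genes for CCR1 ligands, Ccl3 and Ccl5 fell in both populations. Ccl6 and Ccl9, the most abundant, changed by -0.76 and -0.315 in CCR2+ve monocytes. In CCR1/2+ve monocytes they changed by 0.27 and -0.26, and neither passed on the adjusted p. Of 9 genes for enzymes and proteoglycans that cleave or store chemokines, Dpp4, a peptidase that trims the ends of CXCL10 and CCL5, was lower in CCR1/2+ve than in CCR2+ve monocytes both at rest (18.2 against 60.2 CPM, -1.65) and after inflammation (13.1 against 31.6 CPM, -1.30, adjusted p = 0.0299). The granule protease genes Elane (1747 against 338 CPM, 2.45) and Prtn3 (495 against 152 CPM, 1.78) were higher in resting CCR1/2+ve than in resting CCR2+ve monocytes. So was the gelatinase gene Mmp9, at low levels (2.11 against 0.0773 CPM, 4.76). Adam17, whose product sheds membrane proteins, rose by 1.35 in inflamed CCR1/2+ve monocytes, and Adam10, the main sheddase of CXCL16, was not called in any comparison of these populations.

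In the libraries labelled CCR1, 8 of the 10 genes were lower than in inflamed CCR2+ve monocytes and 0 higher, where 16.8% of all genes were lower and 14.4% higher (median -2.87, against -0.01 for all genes). Ccl6 was at 33.8, 36.4, 21.5 and 25.3 CPM, all far below the other groups, a fold change of -5.34 (SE 0.18, adjusted p = 6.25e-13). Ccl9 was at 8.13, 9.70, 4.43 and 7.95 CPM (-6.37, SE 0.24, adjusted p = 7.71e-11). Ccl2 differed by -4.84, Ccl3 by -3.55, Ccl4 by -3.60, Ccl5 by -2.10, Cxcl10 by -2.18 and Cxcl16 by -2.18. The neutrophil marker sum of 92400 to 136000 CPM moved with these differences. So did the 3 eosinophil markers, all called higher (38.3 to 86.1 CPM summed, against 1.72 to 3.4 CPM in inflamed CCR2+ve libraries). Other lists were mixed. Of 14 tissue macrophage markers 2 were called higher and 8 lower (median -1.685), with Vcam1 (464 against 1.12 CPM) and Slc40a1 (537 against 1.87 CPM) higher. Of 10 T and NK cell markers 2 were called higher, among them Nkg7 (1560.0 against 2.49 CPM), and 5 lower (median -2.41). The part of these cells in the differences was not tested. Cxcl2 held 15 and Pf4 21 reads in the 4 libraries together, and neither passed (-1.02, adjusted p = 0.326 and -1.12, adjusted p = 0.143, the latter 0.0365 without inflamed CCR2+ve replicate 3). Against inflamed CCR1/2+ve monocytes 6 were lower and 0 higher, where 14.6% of all genes were lower and 13.2% higher (median -2.38, against 0.00). These were Ccl6 (-5.75), Ccl9 (-5.78), Ccl2 (-5.06), Ccl3 (-3.27), Ccl4 (-3.01) and Cxcl10 (-1.75). Ccl5 (-1.22, adjusted p = 0.108) passed without inflamed CCR1/2+ve replicate 2 (adjusted p = 0.0275), and Cxcl16 (-1.27, adjusted p = 0.0568) passed without replicate 1 of the libraries labelled CCR1 (adjusted p = 0.0456), with filterByExpr (0.0335) and in 1 fit of all 19 libraries (0.0356).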

How the data were processed

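Cells sorted from mouse bone marrow were profiled in 19 bulk RNA-seq libraries of 5 groups, taken from the sample labels. The authors checked their paired-end reads by fastp, mapped them with STAR 2.7.10a on GRCm38 (Ensembl release 91), retained uniquely placed reads matching 35 or more bases, and deposited raw read counts per gene, not normalized. Of 20 columns, 1 matched no sample and was not used. The 10 genes and the gene lists were chosen with earlier results of these data known.

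The 18652 genes averaging 1 or more reads per library (19 libraries) were tested with edgeR 4.0.16 in R 4.3.3 (TMM, robust quasi-likelihood F test, two-sided, Benjamini-Hochberg adjustment over all genes tested), each comparison on the libraries of its groups and the interaction on 15. Each standard error was obtained by dividing the log2 fold change by the square root of its F. CPM levels use TMM factors over the 19 libraries, and RPKM is CPM per kilobase of merged GENCODE M21 exons. Correlations used log2 CPM with a prior count of 2. Intervals of read ratios cover counting error only. Exact two-sided permutation tests over libraries cannot go below 0.0286 with 4 against 4 libraries or 0.0571 with 3 against 4, so differences are described by whether groups overlap and by the edgeR test.

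Genes named from each list are those past both cutoffs, at most 5 per list and comparison in order of p, and the 3 genes most like a member are those with the highest Pearson r. Ctsg and Mcpt8, in the lists, are not analysed here, and the result for 1 receptor gene is not reported here. Same-numbered resting libraries deviated together (r of deviations from group means 0.306 to 0.611 over 4 pairs), as did those labelled CCR1 and inflamed CCR2+ve (0.134 to 0.247), so these numbers pair the libraries, as a hint from the data. Alternatives were DESeq2 1.42.0, RLE size factors, other filters on low counts, a replicate block, 1 fit of all 19 libraries and leaving out each library. The scripts were tested on simulated data.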

Additional observations from a re-analysis of the deposited data

Results flagged for a closer look

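In groups of 4 libraries each gene was checked for a library far from the others of its group, over 40 sets of values, where chance alone marks about 1 in 20. Ccl5 in inflamed CCR2+ve replicate 4 was 2.97 CPM, while the other replicates were between 1.11 and 1.15 CPM. Without this library the change of Ccl5 under inflammation in CCR2+ve monocytes was -3.19 in place of -2.67. Cxcl2 in resting CCR2+ve replicate 1 was 0.0401 CPM, which is 1 read, and the other replicates had none. The change of Ccl6 with inflammation differed by 0.98 on the log2 scale between the CCR1/2+ve and the CCR2+ve population (edgeR quasi-likelihood test of the interaction, adjusted p = 0.0273), with 0.27 in the former and -0.76 in the latter.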

How the results depend on the processing

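Without the cutoff on fold change, the genes past the adjusted p were 5 in place of 2 between resting populations, 7 in place of 4 under inflammation in CCR2+ve monocytes and 1 in place of 0 (Ccl6) in the interaction. The interaction also gave 1 with RLE size factors, with DESeq2 and in 1 fit of all 19 libraries, where the fold change of Ccl6 crosses 1, and 0 to 1 when each library was left out. The other 102 of 114 counts under an alternative were within 1.5 times the reported count. Of single genes, Ccl2 between resting populations turned to -0.077 in 1 fit of all 19 libraries, and Ccl4 under inflammation in CCR1/2+ve monocytes turned to 0.014 with RLE size factors, 0.013 with DESeq2 and 0.059 in 1 fit of all 19, none past the threshold. The cause was not tested.

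Leaving out each library in turn gave ranges that crossed 0 for differences that had not passed. These were -0.17 to 0.19 for Ccl2 and -0.19 to 1.399 for Pf4 between resting populations, -0.27 to 0.12 for Ccl4 and -1.11 to 0.72 for Pf4 under inflammation in CCR1/2+ve monocytes, and -1.24 to 0.012 for Cxcl2 between inflamed populations. They were -0.93 to 0.23 for Cxcl2 and -0.30 to 1.01 for Pf4 between the libraries labelled CCR1 and inflamed CCR1/2+ve monocytes, and -0.12 to 0.091 for Ccl9 in the interaction. Between resting populations Cxcl10 had an adjusted p of 0.0511 with no filter on low counts.

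With the replicate number as a block the resting comparison, whose numbers pair the libraries, gave a count of 2, and of the other genes only Ccl4 crossed an adjusted p of 0.05 (0.0373), under the fold cutoff. Numbers also pair the libraries labelled CCR1 with inflamed CCR2+ve, where the block gave a count of 8. The interaction, whose block paired the inflamed libraries by number as well as the resting ones, gave 0.96 for Ccl6 (adjusted p = 0.000700) and a count of 0. Same-numbered inflamed CCR1/2+ve and CCR2+ve libraries had r of 0.352, 0.496 and -0.314, so their pairing is not settled. In the remaining comparisons no pairing beyond the shared number was established. There the block gave Ccl6 under inflammation in CCR1/2+ve monocytes 0.32 (adjusted p = 0.0297) and Cxcl10 between the libraries labelled CCR1 and inflamed CCR1/2+ve monocytes -1.56 (adjusted p = 0.0715). Depth limits Cxcl2, Pf4 and Ccl4, with as few as 0, 0 and 17 reads in a library of the CCR1/2+ve and CCR2+ve groups.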
